A study of Mus musculus with 20 samples.

Results

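The kinesins and tubulins of the mouse testis were followed from birth to day 35. Members were taken by gene symbol: names that begin with Kif or Kifc and a digit, or with Tuba, Tubb, Tubd, Tube or Tubg and a digit. Only probe sets that carry 1 symbol were used, and where a gene has several, the brightest by mean log2 over all arrays stands for it. The rule found 58 genes of 18193 in all, 41 kinesins and 17 tubulins. Kinesins are motor proteins that hydrolyse ATP and, in most families, walk along microtubules, while the members of some families shorten microtubules instead. Microtubules are polymers of alpha and beta tubulin, gamma tubulin starts them, and delta and epsilon tubulin belong to centrioles. In the testis, microtubules build the spindles of mitosis and meiosis, the axoneme of the sperm tail, the manchette that surrounds the nucleus of an elongating spermatid, and the long cytoskeleton of Sertoli cells.

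Total RNA of mouse testis was measured on 20 single-colour arrays, 2 for each of 10 ages: postnatal days 0, 3, 6, 8 and 10 in the early part of the course, days 14, 18 and 20 in the middle, and days 30 and 35 at the end. No strain, genotype or treatment is named in the labels, so that age is the only stated difference between the groups. They also do not say whether the 2 arrays of a day hold RNA of separate animals, so the spread behind each p-value is that between these arrays and may be technical. An intensity is the brightness of a probe set on a linear scale, with no detection call, and the intensity of a probe set is set only against its own values on other arrays. Differences are on the scale of log2(intensity + 7.83), which understates the change of dim probe sets.

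The array titled day 18 replicate 2 has day 0 in its source name. Over the genes tested, it correlated at r = 0.969 with the other day 18 array, at 0.950 and 0.951 with the day 20 arrays and at 0.769 with both day 0 arrays, and it was used under its title. The lowest values stepped up between days 14 and 18: the 5th percentile of an array lay between 0.883 and 1.23 on days 0 to 14 and between 3.46 and 5.54 on days 18 to 35. Day 20 and day 14 lie on either side of this step, so in that comparison the step and the day cannot be told apart. Summed intensities of marker genes followed the maturing testis. Those of 8 meiotic genes were 1559.6 and 1603 on day 8 and 10389.7 and 10437 on day 14. The sums of 8 round spermatid genes were 219.9 and 230.1 on day 14, 1704 and 1765 on day 20 and 12900.1 and 13362 on day 35, and those of 8 elongating spermatid genes were 459 and 540.0 on day 14, 864 and 921 on day 20 and 47714 and 53253 on day 35. Sums of 8 Sertoli cell genes were 9118 and 9449.8 on day 14 and 4927 and 5014 on day 20.

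Upstream sequence was searched for 4 short motifs, because spindle genes and cilium genes are known to share regulatory elements. Of the 58 genes, 46 have a window of 300 bases in the RefSeq promoter table of build GRCm38.p6, from 250 bases before to 50 bases after the annotated start. The motifs were TTTGAA (the cell cycle homology region, CHR, of genes expressed in dividing cells), CCAAT (the CCAAT box), GTTGCC (part of the X-box of cilium genes) and TGACG (part of a cAMP response element), each on both strands, and none of the 4 contains another. TTTGAA stood in the window of 11 of 14 spindle and cytokinesis kinesins (78.6%) and of 20.2% of 27025 genes with a window. Within 30 bases of the start, a distance chosen after the positions were seen, it stood in 9 of 14 spindle kinesins (64.3%) and in 3.66% of all genes. The following stretches, in which capitals mark TTTGAA or its complement TTCAAA, were picked from the matches near the start. Each is read 5′ to 3′ on the gene's strand.
Kif11, chr19:37376338-37376393, plus strand: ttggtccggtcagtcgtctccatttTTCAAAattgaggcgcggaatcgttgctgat
Kif15, chr9:122951037-122951092, plus strand: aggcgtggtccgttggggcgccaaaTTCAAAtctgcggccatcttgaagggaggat
Kif22, chr7:127042407-127042462, minus strand: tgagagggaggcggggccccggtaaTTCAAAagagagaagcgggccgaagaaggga
Kif23, chr9:61946770-61946822, minus strand: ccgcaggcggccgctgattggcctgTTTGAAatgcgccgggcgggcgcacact
Kif20b, chr19:34922340-34922387, plus strand: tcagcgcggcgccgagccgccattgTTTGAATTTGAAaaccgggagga
Kifc1, chr17:33890604-33890657, minus strand: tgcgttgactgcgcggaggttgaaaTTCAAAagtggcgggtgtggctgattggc

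Counted from +1 at the start, the capitals begin at -19 in Kif11 and Kif15, at -17 in Kif22, at 2 in Kifc1, at 3 in Kif23 and at 8 in Kif20b, whose window holds the motif back to back. In Kif14 and Kif2c, which are not shown, the match lay farther off, at -228 and -103. Windows of Kif18a, Kif24 and Kif2b, the spindle kinesins outside the 11 with the motif, do not hold these letters. GTTGCC stood in 4 of 8 cilium and flagellum kinesins (50.0%) and in 14.1% of all genes. It also stood in 3 of 11 transport kinesins (27.3%), 3 of 14 spindle kinesins (21.4%) and 0 of 6 beta tubulins. The 3 cilium and flagellum kinesins with this motif and a called change between days are shown, with GTTGCC in capitals.
Kif3a, chr11:53567246-53567301, plus strand: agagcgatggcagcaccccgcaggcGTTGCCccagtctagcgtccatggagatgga
Kif9, chr9:110476942-110476987, plus strand: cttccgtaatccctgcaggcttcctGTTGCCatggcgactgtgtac
Kif17, chr4:138262153-138262208, plus strand: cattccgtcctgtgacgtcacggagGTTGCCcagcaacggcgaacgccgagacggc

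Among all 46 members with a window, CCAAT stood in 50.0% and in 41.1% of all genes, and TGACG in 45.7% and in 23.0% of all genes. These matches describe letters in a window and not bound sites, and no test was made on them.

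Of the 58 members, 56 passed the filter on low values and were tested among 16429 genes. Kif14 and Kif28, which did not pass, read between 0.927 and 11.8 and between 0.912 and 14.1 on all arrays. A call over the 10 days takes an adjusted p under 0.05 in limma's moderated F test and day means 2-fold apart or more. Folds in this paragraph are between day means of the log2 values with the added constant, and understate those of intensity in dim probe sets. Of the 56 tested members, 44 (78.6%) were called. The share was 77.6% among all genes tested, so the members changed with age about as often as other genes. Their highest day mean fell on days 0 to 10 in 27 members (48.2%), on days 14 to 20 in 9 (16.1%) and on days 30 to 35 in 20 (35.7%), where all genes gave 42.5%, 23.8% and 33.7%. On this log2 scale, day means spanned 4-fold or more in 22 members (39.3%) and in 41.1% of all genes. They spanned 16-fold or more in 7 members (12.5%) and in 8.12% of all genes. By role, 9 of 15 spindle and cytokinesis kinesins had their highest day mean on days 0 to 10, and 5 of 8 cilium and flagellum kinesins had it on days 30 to 35. The map of all members by array shows this order, and no test of these counts was made.

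**Figure D1:**
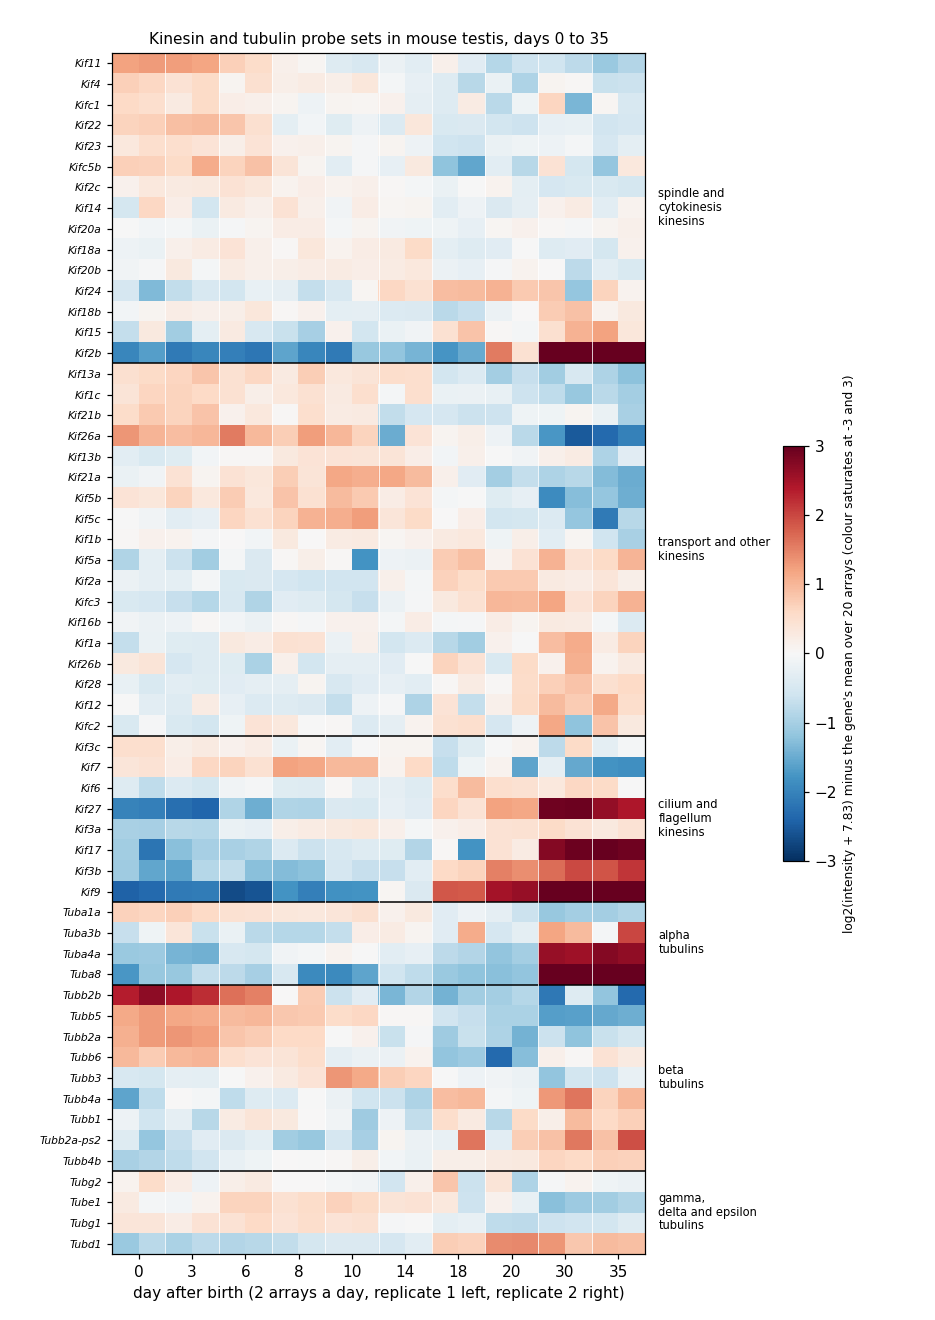
Map of the 58 kinesin and tubulin genes (rows, grouped by role and ordered by the day of the highest mean) on 20 arrays (columns, 2 a day); colour gives log2(intensity + 7.83) minus the gene's own mean over the 20 arrays, from blue (lower) to red (higher). Spindle kinesins such as Kif11 are red on the left, while Kif2b, Kif9, Kif17, Kif27, Tuba4a and Tuba8 are dark red on days 30 and 35.

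Changes between days were compared in 4 steps, in which a member is called when limma's moderated test gives an adjusted p under 0.05 and the log2 difference is 1 or more in size. Neighbouring steps share the arrays of a day and are not independent. Between days 0 and 8, 3 of 56 members were called higher, against 3.29% of all genes tested, and 2 were called lower, against 2.77%. From day 8 to day 14, 1 member was called higher and 2 were called lower, where the shares over all genes were 5.48% and 2.5%. Between days 14 and 20, 6 members were called higher and 5 were called lower, against 18.2% and 11.2% of all genes. From day 20 to day 35, 6 were called higher and 2 were called lower, against 8.5% and 7.27%. The median log2 difference of the members was 0.096, -0.11, -0.058 and -0.047 in the 4 steps, and that of all genes tested was -0.0065, -0.017, 0.0078 and -0.20. The 27 calls belong to 19 members, and 25 others changed over the time course with no called step. In whole-organ RNA, fewer cells of a type and less RNA per cell cannot be told apart.

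**Figure D2:**
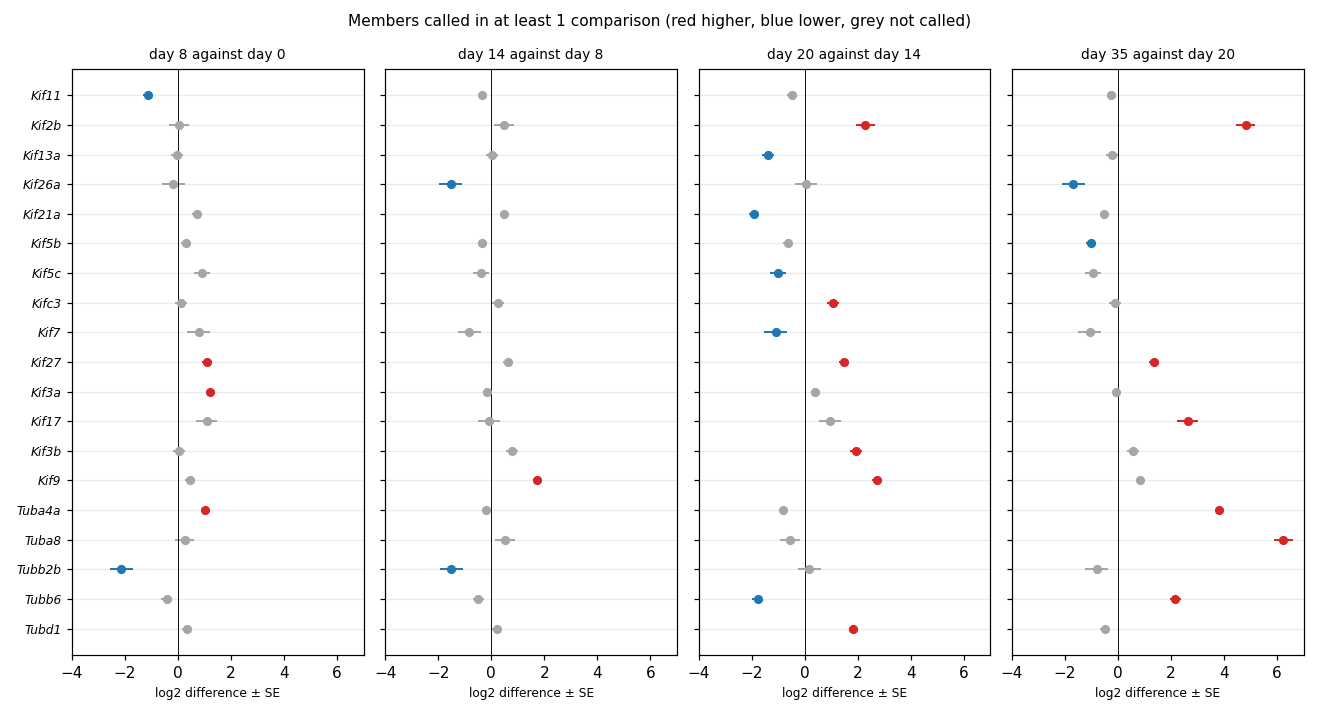
Log2 difference of later minus earlier day (horizontal axis, on the log2(intensity + 7.83) scale) with its standard error, for the 19 members (rows) called in at least 1 of the 4 steps (panels); red points were called higher, blue points lower, and grey points were not called. The differences of Tuba8 and Kif2b in the last step, 6.24 and 4.81, lie farthest to the right.

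Among the 15 spindle and cytokinesis kinesins, 9 of the 14 tested (64.3%) were called over the time course, against 77.6% of all genes tested. Kif11, the motor that pushes spindle poles apart, was brightest at birth on its chosen probe set. The arrays read 316 and 333 on day 0, 325 and 311 on day 3, 222 and 198 on day 6, 147 and 139 on day 8 and 99.3 and 92.9 on day 10. Later arrays read 116 and 105 on day 14, 148 and 103 on day 18, 70.2 and 82.7 on day 20, 84.9 and 73.9 on day 30 and 57.5 and 67.8 on day 35. No array after day 6 reached a value of days 0 to 6, and the arrays of days 8 and 0 differed by -1.14 ± 0.17 (SE), adjusted p = 4.64e-05. Of its other probe sets, one had its highest day mean on day 3 and gave -0.58 ± 0.19 (SE), adjusted p = 0.0381, and another went from a mean of 144 on day 0 to 239 on day 8, a difference of 0.70 ± 0.32 (SE), adjusted p = 0.161. Neither was called, and the means of all its probe sets differed by -0.34, which was not called either. The sums of 9 marker genes of dividing cells were 10419 and 10614 on day 0 and 8918 and 9316 on day 8. They were 11515 and 11532 on day 20 and 10466 and 10878 on day 35, when Kif11 was low. Of these 9 genes, 0 were called between days 0 and 8, where 3.29% of all genes tested were called higher and 2.77% lower. The part of dividing cells in the fall of Kif11 was not tested.

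Kif22, a motor that binds chromosome arms, read 1397 and 1435 on day 0, 1655 and 1706 on day 3 and 1559 and 1230.4 on day 6, and 718 and 829 on day 8, 679 and 785 on day 10 and 660.2 and 1105 on day 14. From day 18 on its arrays lay between 564 and 753. It changed over the time course (adjusted p = 2.25e-08 in the moderated F test), but the difference from day 0 to day 8, -0.87, was under the size required. Kif4, which organises the central spindle and the chromosomes, had a mean of 198 ± 9.12 (SD, n = 2) on day 0 and 74.3 ± 0.143 on day 35. Kif23, a motor of the bridge between dividing cells, had 529 ± 51.4 on day 0 and 255 ± 4.96 on day 18. Both were called over the time course and in no step. For Kifc5b, a near-identical copy of Kifc1, the mean was 54.4 ± 16.2 on day 3 and 5.27 ± 2.24 on day 18, and probes for these copies may share transcripts.

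Other mitotic kinesins were not called over the time course. Kif20a, a motor of cytokinesis, read between 293 and 411 on all 20 arrays, and its day means spanned 0.42 on the log2 scale. Kif20b, which acts at the abscission of daughter cells, and Kif18a, which restrains the length of spindle microtubules, spanned 0.67 and 0.80. Kifc1, the minus-end spindle motor that is also known from the acrosome, had arrays as far apart as 63.4 and 9.65 on day 30, and its time course test gave an adjusted p of 0.479. With Kif2c, these make up the 5 tested spindle kinesins without a time course call.

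Kif18b, a relative of Kif18a, had its lowest day mean on day 18, 86.7 ± 6.13, and its highest on day 30, 272 ± 16.4. Kif24, which trims centriolar microtubules and restrains cilium formation, had a mean of 45.2 ± 20.5 on day 0 and 176 ± 2.57 on day 18. Kif15, a spindle motor that can act beside Kif11, had day means between 5.23 on day 8 and 33.5 on day 35. All of them were under the pooled median intensity of 34.6, and the day 35 arrays read 45.4 and 21.5. Its day means from day 18 on, after the step in the lowest values, were above the earlier ones. The part of that step was not tested. All 3 genes changed over the time course and in no called comparison of days.

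Kif2b, a kinesin that takes microtubules apart at the spindle, was dim until day 18 and bright from day 30. Its arrays read 1.63 and 3.84 on day 0, 0.599 and 1.67 on day 3, 0.999 and 0.399 on day 6, 4.42 and 1.59 on day 8 and 0.651 and 9.02 on day 10. They read 8.44 and 6.11 on day 14, 2.88 and 5.06 on day 18, 100.5 and 42.4 on day 20, 1487 and 1755 on day 30 and 2154 and 1979 on day 35. On days 0 to 18 no array passed 9.02, and the arrays of days 20, 30 and 35 overlapped neither with these nor with each other. Between days 14 and 20 the difference was 2.29 ± 0.37 (SE), adjusted p = 2.77e-05, and between days 20 and 35 it was 4.81 ± 0.37 (SE), adjusted p = 2.78e-09. With values floored at the pooled median intensity of 34.6, the earlier step was 0.92 and no longer called. Spermatid marker sums were higher on day 20 than on day 14 and on day 35 than on day 20, by the values above, and their part in both rises was not tested.

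Of the 18 transport and other kinesins, 14 of the 17 tested (82.4%) were called over the time course, against 77.6% of all genes tested. In the steps, Kifc3 was called higher, and 5 genes, Kif5b, Kif5c, Kif13a, Kif21a and Kif26a, were called lower. Kif21a, a plus-end motor that restrains microtubule growth at the cell cortex, went through a maximum at days 10 and 14. Its arrays read 151 and 162 on day 0, 239 and 184 on day 3, 238 and 223 on day 6, 297 and 229 on day 8 and 398 and 377 on day 10. They read 397 and 342 on day 14, 194 and 136 on day 18, 81.7 and 103 on day 20, 87.2 and 93.6 on day 30 and 66.0 and 57.4 on day 35. The arrays of day 20 did not reach those of day 14, with a difference of -1.92 ± 0.18 (SE), adjusted p = 2.02e-08. With the mean of its probe sets the difference was -0.77 and under the size required.

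Kif13a, which carries vesicles to the cell surface and endosomes, read 115 and 115 on day 14, 51.0 and 56.4 on day 18 and 34.7 and 45.3 on day 20. Its difference between days 14 and 20 was -1.37 ± 0.22 (SE), adjusted p = 3.51e-05, and with the mean of its probe sets it was -0.51 and not called. Kif5c, a heavy chain of conventional kinesin, read 187 and 209 on day 10, 109.8 and 129 on day 14, 54.9 and 55.4 on day 20 and 13.2 and 43.7 on day 35. Between days 14 and 20 it differed by -1.01 ± 0.31 (SE), adjusted p = 0.00886, at the edge of the size required, and without day 14 replicate 2 the call was lost. Sertoli cell marker sums were also lower on day 20 than on day 14, by the values above, and their part in these falls was not tested.

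Kif5b, the broadly expressed heavy chain of conventional kinesin, read 792 and 747 on day 0, 939.5 and 743 on day 3, 1007 and 735 on day 6, 1075 and 819 on day 8 and 1145 and 1018 on day 10. Afterwards its arrays read 693 and 788 on day 14, 563 and 585 on day 18, 454 and 497 on day 20, 155 and 240.1 on day 30 and 258 and 207 on day 35. The highest mean stood on day 10 and the lowest on day 30, and days 20 and 35 did not overlap. That step gave -1.02 ± 0.18 (SE), adjusted p = 9.94e-05, just past the size required. Quantile normalization, a common median, a larger added constant, the mean of its probe sets, and leaving out day 20 replicate 2 or day 35 replicate 2 each ended the call.

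Kif26a, a kinesin without motor activity that acts in signalling, read 171 and 135 on day 0, 127 and 133 on day 3, 199 and 131 on day 6, 110.1 and 159.7 on day 8 and 134 and 104 on day 10. Later it read 17.2 and 86.2 on day 14, 67.5 and 72.0 on day 18, 55.5 and 32.3 on day 20, 13.1 and 4.57 on day 30 and 6.19 and 9.60 on day 35. Every array of days 30 and 35 was below every earlier array. The 2 arrays of day 14 were far apart, so that the called fall from day 8 to day 14, -1.53 ± 0.43 (SE), adjusted p = 0.0112, rests on replicate 1: without it, or without day 8 replicate 2, the difference was not called. Between days 20 and 35 the difference was -1.69 ± 0.43 (SE), adjusted p = 0.00299, and with values floored at 34.6 it was -0.34 and not called.

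Kifc3, a minus-end motor found at cell junctions, read 75.5 and 83.5 on day 14, 106 and 120.4 on day 18, 179 and 175 on day 20, 203 and 117 on day 30 and 141 and 186 on day 35. The arrays of day 20 lay above those of day 14, and the difference was 1.08 ± 0.23 (SE), adjusted p = 0.000484. With arrays scaled to a common median, or with a larger added constant, it was under the size required. Kif2a, a microtubule-shortening kinesin, changed over the time course without a called step. Its means were 369 ± 0.598 (SD, n = 2) on day 10, 579 ± 59.0 on day 14 and 961 ± 5.11 on day 20. From day 8, with a mean of 379, to day 14 the difference was 0.60 (adjusted p = 7.9e-05). From day 14 to day 20 it was 0.73 (adjusted p = 2.4e-06), and both were under the size required.

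Among the remaining transport kinesins, Kif1c and Kif21b had their highest means on day 3, at 180.1 ± 5.35 and 214 ± 21.3. Kif13b had its highest mean on day 10, at 180.4 ± 3.00. Kif5a had its highest mean on day 18, at 72.2 ± 5.26, but its arrays overlapped with those of days 30 and 35, with means of 68.5 and 70.6. The latest maxima were those of Kif1a on day 30, at 92.3 ± 9.40, and of Kif12 on day 35, at 41.6 ± 14.7. Kif12 was dim, with day 35 arrays of 52.0 and 31.2 around the pooled median of 34.6. The part of the step in the lowest values in its course was not tested. These 6 genes and Kif1b, which carries mitochondria and vesicles, passed the time course test and no step. Kif16b, Kif26b and Kifc2 did not pass it. Kif16b, an endosome motor, read between 136 and 224 on all arrays. Kif5a and Kif1a are known mainly from neurons. The sums of 10 nerve and glia genes lay between 253 and 444 on all arrays. They were 315 and 407 on day 18, 253 and 261 on day 20 and 399 and 444 on day 30. Their part in the courses of Kif5a and Kif1a was not tested.

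The 8 cilium and flagellum kinesins had a median span of day means of 3.16 on the log2 scale. The spindle kinesins gave 1.43, the transport and other kinesins 1.59 and all genes tested 1.80. Of the 8 cilium and flagellum kinesins, 7 (87.5%) were called over the time course, against 77.6% of all genes tested, and Kif3c was not. Kif3a and Kif3b are the motor subunits of heterotrimeric kinesin-2, which carries building material along the axoneme, but their courses differed. Kif3a read 239 and 234 on day 0, 264 and 260.4 on day 3, 416 and 400.0 on day 6, 536 and 571 on day 8 and 584 and 607 on day 10. It read 534 and 459.8 on day 14, 527 and 548 on day 18, 645 and 657 on day 20, 709 and 647 on day 30 and 589 and 647 on day 35. The step from day 3 to day 6 separated the arrays with no overlap, and every later array stayed above those of day 6. Between days 0 and 8 the difference was 1.20 ± 0.089 (SE), adjusted p = 8.31e-09, and with the mean of its probe sets it was 0.35 and not called. No later step was called for this probe set.

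Kif3b read 68.2 and 46.2 on day 0, 44.5 and 79.1 on day 3, 87.0 and 58.1 on day 6, 56.3 and 59.3 on day 8 and 104 and 90.7 on day 10. It went on to 90.1 and 119 on day 14, 230.4 and 244 on day 18, 442 and 406 on day 20, 496 and 613 on day 30 and 574 and 693 on day 35. Its arrays of day 18 were above all earlier arrays and those of day 20 above day 18, days after the step of Kif3a. Between days 14 and 20 the difference was 1.95 ± 0.23 (SE), adjusted p = 4.98e-07, and the means of all its probe sets differed by 0.72, which was under the size required. The difference of the next step, 0.56, was not called (adjusted p = 0.0504).

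Kif9, a kinesin of the central apparatus of motile cilia and sperm tails, was the only member called higher between days 8 and 14. Its arrays read 13.0 and 14.3 on day 0, 17.5 and 18.2 on day 3, 9.47 and 10.8 on day 6, 24.2 and 19.0 on day 8 and 23.6 and 24.0 on day 10. From then they read 109 and 74.6 on day 14, 398 and 393 on day 18, 615 and 670.3 on day 20, 1024 and 1036 on day 30 and 1112 and 1214 on day 35. From day 14 on, both arrays of a day lay above those of the day before. The differences were 1.74 ± 0.18 (SE), adjusted p = 2.67e-07, from day 8 to day 14, and 2.73 ± 0.18 (SE), adjusted p = 1.66e-10, from day 14 to day 20. The last step, 0.85, was under the size required (adjusted p = 0.000527). Meiotic marker sums were higher on day 14 than on day 8, by the values above, and their part in the onset was not tested.

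Kif27, a motile cilium kinesin related to Kif7, was called higher in 3 of the 4 steps. Its arrays read 17.8 and 17.2 on day 0, 13.6 and 11.8 on day 3, 47.2 and 29.2 on day 6, 47.2 and 45.9 on day 8 and 68.8 and 66.6 on day 10. Its later arrays read 78.9 and 73.6 on day 14, 153 and 131 on day 18, 230.1 and 220.0 on day 20, 763 and 782 on day 30 and 636 and 547 on day 35. Arrays of days 18, 20, 30 and 35 did not overlap with those of days 0 to 14, and day 30 was higher than day 35. The called differences were 1.10 from day 0 to day 8 (adjusted p = 0.00023), 1.47 from day 14 to day 20 (adjusted p = 1.66e-06) and 1.36 from day 20 to day 35 (adjusted p = 6.27e-06). The earliest of these was lost with a larger added constant and with the floor. The spermatid marker sums moved with the rises of Kif3b, Kif9 and Kif27 between days 14 and 20, and their part was not tested. A probe set shared by Kif27 and Gm26555 was not tested and read 0.601 on average on day 0 and 93.7 on day 35.

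Kif17, a homodimeric kinesin-2 that is known in male germ cells as a partner of a transcriptional coactivator, had its called rise in the last step. Its arrays read 36.0 and 12.1 on day 0, 30.0 and 37.4 on day 3, 38.2 and 41.0 on day 6, 60.2 and 49.8 on day 8 and 57.2 and 61.5 on day 10. They continued with 62.6 and 41.6 on day 14, 85.0 and 18.4 on day 18, 114 and 99.4 on day 20, 599 and 683 on day 30 and 726 and 678 on day 35. The 2 arrays of day 18 were far apart, and days 30 and 35 lay above all earlier arrays. From day 20 to day 35 the difference was 2.63 ± 0.40 (SE), adjusted p = 2.14e-05. Both other Kif17 probe sets were called higher already between days 14 and 20, by 1.40 ± 0.44 and 1.41 ± 0.29.

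Kif7, a regulator of hedgehog signalling at the cilium tip, ran the other way. It read 122 and 119 on day 8, 53.3 and 77.9 on day 14, 25.4 and 44.1 on day 18, 52.9 and 11.0 on day 20, 39.0 and 11.7 on day 30 and 8.64 and 7.94 on day 35. The highest values stood on day 8 and the lowest on day 35, but the 2 arrays of day 20 were far apart. Its fall from day 14 to day 20, -1.10 ± 0.43 (SE), adjusted p = 0.0364, lost its call under 8 of 34 alternatives, among them leaving out day 20 replicate 2 or day 14 replicate 2. Kif6, another motile cilium kinesin, passed the time course test, with a mean of 23.5 ± 5.99 on day 0 and 69.7 ± 15.9 on day 18. Kif3c, a kinesin-2 subunit best known from neurons, did not pass it (adjusted p = 0.122).

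**Figure D3:**
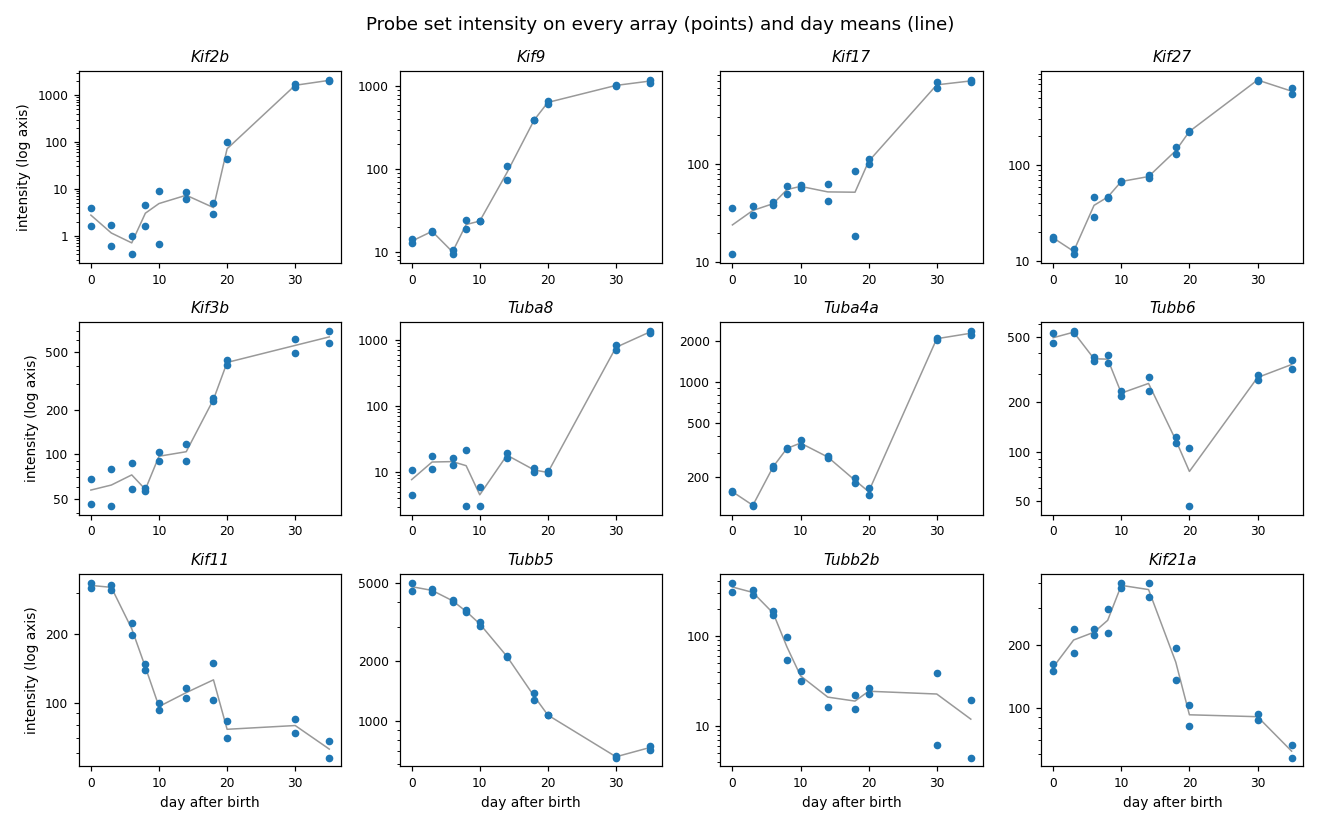
Intensity on every array (points, log axis) against day after birth for 12 kinesin and tubulin genes, with lines through the means of the 2 arrays of a day; each panel has its own vertical range. Tuba8 lies at or under 21.9 through day 20 and at 701 or more on days 30 and 35, Kif9 is already between 74.6 and 109 on day 14, and Tubb6 has its lowest arrays on day 20.

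Of the 4 alpha tubulins on probe sets of their own, 3 (75%) were called over the time course, against 77.6% of all genes tested. Tuba8, an alpha tubulin of testis, muscle and brain, had the largest called difference of all members. Its arrays read 4.56 and 10.8 on day 0, 11.0 and 17.4 on day 3, 16.1 and 12.7 on day 6, 21.9 and 3.10 on day 8 and 3.07 and 5.99 on day 10. They then read 19.5 and 16.6 on day 14, 11.4 and 10.1 on day 18, 9.52 and 10.2 on day 20, 848 and 701 on day 30 and 1359 and 1296 on day 35. Days 30 and 35 were separated from all earlier arrays, and arrays of days 0 to 20 ranged from 3.07 to 21.9. From day 20 to day 35 the difference was 6.24 ± 0.37 (SE), adjusted p = 8.96e-11.

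Tuba4a, the alpha tubulin whose gene does not encode the C-terminal tyrosine, had a smaller early maximum and a late one. It read 153 and 157 on day 0, 124 and 121 on day 3, 241 and 233 on day 6, 317 and 327 on day 8 and 369.6 and 336 on day 10. It continued with 272 and 285 on day 14, 195 and 180.4 on day 18, 146 and 164 on day 20, 2115 and 2034 on day 30 and 2356 and 2197 on day 35. The arrays of days 8 and 10 lay above those of days 0 to 6, days 18 and 20 had come back near the values of day 0, and days 30 and 35 were above all others. The difference was 1.02 ± 0.093 (SE), adjusted p = 1.47e-07, from day 0 to day 8, and 3.81 ± 0.093 (SE), adjusted p = 5.73e-16, from day 20 to day 35, which is 14.7-fold on the means of intensity. The early step was lost with a larger added constant and with the mean of its probe sets. The step between days 14 and 20, -0.82 (adjusted p = 4.01e-07), was under the size required. Spermatid marker sums moved with the late rise of both genes, by the values above, and their part was not tested.

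Tuba1a, the alpha tubulin of neurons and many dividing cells, read 4604 and 4510.3 on day 0, 3651 and 3586 on day 8 and 3145 and 3522 on day 14. It later read 2364 and 1833 on day 20, 1297 and 1411 on day 30 and 1408 and 1539 on day 35. It changed over the time course (adjusted p = 9.6e-13), with no step past the size required. Its probe set is of a type that may also match other transcripts. A probe set shared by Tuba1a and Gm6682 was not tested and ran the opposite way. That probe set read 17.1 and 24.3 on day 0, 66.7 and 80.9 on day 18 and 81.7 and 211 on day 35. Tuba3b, a testis alpha tubulin, read between 1.81 and 62.8 on its own probe set, with 2 arrays of a day often far apart, and did not pass (adjusted p = 0.0607).

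Tuba1b, Tuba1c and Tuba3a matched the naming rule but are found only on probe sets shared with another gene, so they are no members and were not tested. A probe set shared by Tuba3a and Tuba3b read 733 and 744 on day 0, 3210.5 and 3278 on day 8 and 4254 and 3795 on day 14. Later it read 6281 and 6533 on day 20, 6439 and 6175 on day 30 and 7078 and 6453 on day 35. On the other probe set of these genes the day means were 746 on day 0 and 6065 on day 35. The probe set shared by Tuba1b and Gm5620 ran the opposite way, with means of 8422 on day 0, 5109 on day 14 and 2188 on day 35. Which gene of a shared probe set gives its signal was not tested.

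Beta tubulins had their highest day mean on days 0 to 10 in 5 of 9 genes and on days 30 to 35 in 4. All genes tested gave 42.5% and 33.7% for these windows. Over the time course 8 of the 9 (88.9%) were called, against 77.6% of all genes tested. Tubb5, a beta tubulin of most cell types, changed over almost the whole course in small steps. Its arrays read 4572 and 5003 on day 0, 4652 and 4513 on day 3, 4009.7 and 4114 on day 6, 3625 and 3545 on day 8 and 3013 and 3185 on day 10. They read 2121 and 2111 on day 14, 1378 and 1275 on day 18, 1064 and 1068 on day 20, 648 and 661 on day 30 and 713 and 747 on day 35. Each day's 2 arrays were close, and from day 6 to day 30 every array was below those of the day before. Its adjusted p of 4.43e-19 was reached over a span of 2.85 on the log2 scale, and none of the 4 steps passed the size required, the nearest being -0.98 between days 14 and 20. With arrays scaled to a common median that step was -1.20 and called, and with quantile normalization it was -1.18 and called.

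Tubb4b, the beta tubulin of cilia and flagella, went the other way. It read 1686 and 1820.5 on day 0, 1967 and 2245 on day 3, 2839.7 and 3057 on day 6, 3386 and 3323 on day 8 and 3428 and 3794 on day 10. It read 3173 and 2910.3 on day 14, 3780.4 and 3746 on day 18, 4034 and 4058 on day 20, 5239.5 and 5059 on day 30 and 5460.0 and 5412 on day 35. Day 14 lay below day 10 and days 30 and 35 above all earlier arrays. The time course gave an adjusted p of 3.47e-13, and the 4 steps gave 0.93, -0.14, 0.41 and 0.43, none of which passed the size required.

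Tubb2b, a beta tubulin best known from the developing brain, read 309 and 386 on day 0, 325 and 279.8 on day 3, 187 and 168 on day 6, 54.3 and 96.4 on day 8 and 31.3 and 40.6 on day 10. Later it read 16.1 and 25.6 on day 14, 15.4 and 22.3 on day 18, 22.4 and 26.1 on day 20, 6.11 and 39.1 on day 30 and 19.3 and 4.45 on day 35. From day 10 on, no array reached the lowest value of day 8. The differences were -2.13 ± 0.44 (SE), adjusted p = 0.00129, from day 0 to day 8, and -1.51 ± 0.44 (SE), adjusted p = 0.014, from day 8 to day 14. The latter was lost without day 8 replicate 2 and without day 14 replicate 1. On the probe set that Tubb2b shares with Tubb2a-ps2 the means were 134 on day 0 and 8.76 on day 10. Tubb2a, its close relative, had means of 428 ± 20.2 on day 3, 136 ± 44.0 on day 14 and 72.8 ± 19.5 on day 20, with no called step.

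Tubb6, a broadly expressed beta tubulin, was the only member called lower in a step and higher in the next. Its arrays read 535 and 459.6 on day 0, 530.2 and 545 on day 3, 381 and 358 on day 6, 348 and 387 on day 8 and 219 and 236 on day 10. From there they read 234 and 288 on day 14, 113 and 122 on day 18, 46.4 and 105 on day 20, 295 and 272 on day 30 and 361 and 321 on day 35. The lowest arrays were those of day 20, which did not overlap with any other day, and those of days 30 and 35 returned to the range of days 6 to 14. The differences were -1.78 ± 0.21 (SE), adjusted p = 5.62e-07, from day 14 to day 20, and 2.15 ± 0.21 (SE), adjusted p = 6.8e-08, from day 20 to day 35. The 2 arrays of day 20 read 46.4 and 105, and the differences kept their calls without either of them.

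Tubb3, a beta tubulin of neurons that is also made by Sertoli cells, was highest on day 10. It read 111 and 106 on day 0, 155 and 172 on day 6, 192 and 211 on day 8 and 403 and 354 on day 10. It read 266 and 251 on day 14, 146 and 139 on day 20, 65.0 and 105 on day 30 and 99.3 and 133 on day 35. The arrays of day 10 lay above all others, and the gene changed over the time course (adjusted p = 4e-08) with no called step. Tubb4a, a beta tubulin of neurons and glia, had a mean of 14.0 ± 8.52 on day 0 and 122 ± 19.2 on day 30. Tubb1, the beta tubulin of platelets, did not pass the time course test (adjusted p = 0.078). Tubb2a-ps2, named as a pseudogene of Tubb2a, read between 1.09 and 68.7, with the 2 arrays of a day as far apart as 9.24 and 52.8 on day 18.

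In the group of gamma, delta and epsilon tubulins, Tubd1, a tubulin needed for the triplet microtubules of centrioles, was the only member called in a step. Its arrays read 49.7 and 63.8 on day 0, 56.9 and 64.3 on day 3, 60.3 and 62.8 on day 6, 67.1 and 79.5 on day 8 and 85.3 and 84.3 on day 10. They read 80.0 and 92.8 on day 14, 199.7 and 195 on day 18, 325 and 333 on day 20, 305 and 211 on day 30 and 235 and 227 on day 35. Days 18 to 35 lay above all earlier arrays, with the highest values on day 20. The difference between days 14 and 20 was 1.84 ± 0.18 (SE), adjusted p = 3.89e-08, and the spermatid marker sums were also higher on day 20, with their part not tested. Tube1, the epsilon tubulin that acts with it, ran the other way late: its means were 109 ± 0.718 on day 6, 63.7 ± 12.7 on day 20 and 24.7 ± 2.59 on day 30, and its difference from day 20 to day 35 was -0.92 (adjusted p = 0.00668), under the size required.

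Tubg1, the gamma tubulin that nucleates microtubules in most cells, had means of 410.4 ± 32.1 on day 6, 280.4 ± 3.31 on day 14 and 163 ± 0.996 on day 20. It changed over the time course (adjusted p = 2.76e-10) with no called step. Tubg2, its copy best known from the brain, read between 4.21 and 32.7 and gave an adjusted p of 0.954.

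Several genes gave different courses on different probe sets, which can lie in different transcript ends. Of the 35 members with several probe sets, 31 have at least 1 other that passed the filter on low values. Their 66 other probe sets were compared, and none was called in the direction opposite to a call of the chosen probe set in the same step. Where the chosen probe set was called between days 0 and 8, 0 others were called the same way and 7 were not. Between days 14 and 20 these counts were 1 and 12, and between days 20 and 35 they were 8 and 3. In the last step, 11 other probe sets were called where the chosen probe set was not. Among these, a Kif5c probe set rose by 1.66 ± 0.37 (SE, adjusted p = 0.00117), where the chosen probe set was at -0.94 and not called. Kif2c, a microtubule-shortening kinesin of the kinetochore, is the clearest case. Its chosen probe set, of a kind that may also match other transcripts, had means of 311 on day 20 and 231 on day 35 and was not called over the time course. Another had means of 138 and 1237, with a difference of 3.09 ± 0.14 (SE, adjusted p = 3.13e-12), while a further probe set had 74.7 and 436, with 2.43 ± 0.21 (SE, adjusted p = 2.08e-08).

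For Kif5b, 4 of 5 other probe sets were called lower between days 14 and 20, where the chosen probe set was at -0.63. The largest of these falls went from a mean of 676 to 45.1, a difference of -3.70 ± 0.14 (SE, adjusted p = 2.77e-13). The next went from 596 to 106. For Kif3a, the chosen probe set had means of 651 on day 20 and 618 on day 35, a difference of -0.075 that was not called, while 2 others fell, by -1.80 ± 0.27 and -2.20 ± 0.23 on the log2 scale.

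Kif1b had a split within the last step. Of its 7 probe sets, 3 fell between days 20 and 35, among them the probe set that went from 61.5 to 17.9, and a further probe set rose from 71.4 to 232, by 1.60 ± 0.21 (SE, adjusted p = 3.59e-06). The chosen probe set was at -0.82. Whether these probe sets read different transcripts was not tested.

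**Figure D4:**
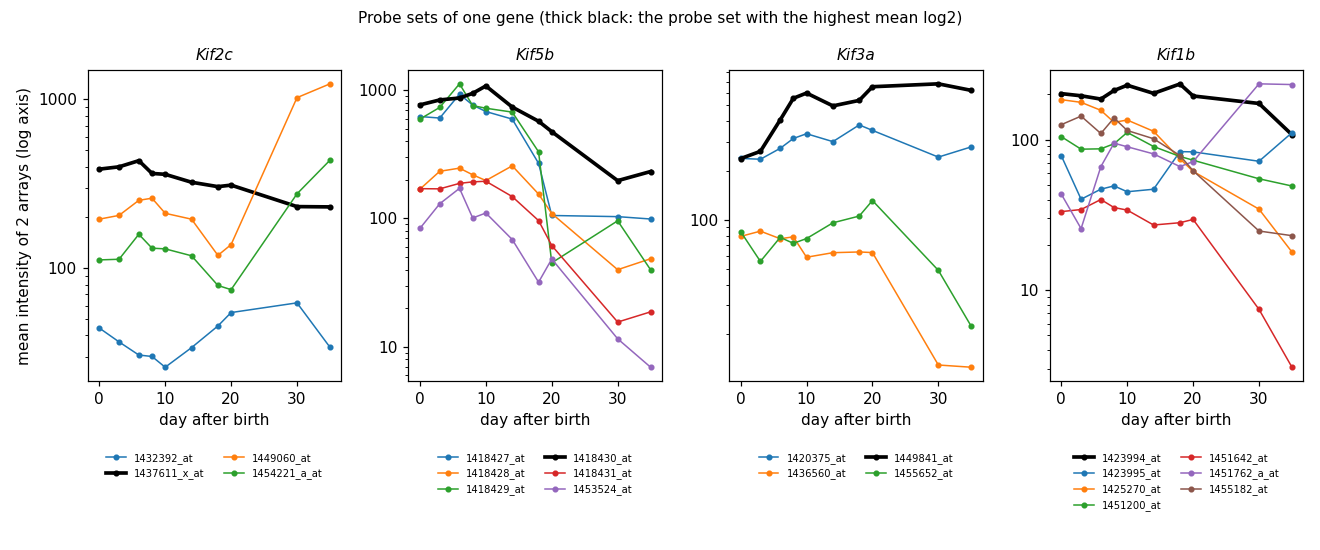
Day means of intensity (2 arrays each, log axis) against day after birth for every probe set of Kif2c, Kif5b, Kif3a and Kif1b; the thick black line is the probe set that represents the gene. After day 20, lines of Kif2c and Kif1b cross or part, with the brightest late Kif2c line reaching a mean of 1237 on day 35.

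Lists of related genes were counted in the same fit. Of 23 tested genes that add or remove tubulin modifications, 12 were called higher and 2 lower between days 14 and 20, against 18.2% and 11.2% of all genes, with a median log2 difference of 1.34 against 0.0078 over all genes. In the same step 7 of 8 round spermatid genes were called higher, with a median of 2.68, and their part was not tested. The 12 were Agbl4, Agbl5, Agtpbp1, Svbp, Ttll5, Ttll6, Ttll8, Ttll9, Ttll10, Ttll11, Ttll13 and Vash2, that is, glutamate and glycine ligases, enzymes that shorten the tubulin tail, and Svbp, the partner of Vash2. The largest rise of the list came earlier, in Ttll8, a glycine ligase of cilia, from a mean of 8.34 to 495 between days 8 and 14 (4.99 ± 0.23 (SE), adjusted p = 4.17e-12). The largest fall was that of Hdac6, a tubulin deacetylase, from 1504 to 479.8 between days 14 and 20 (-1.63 ± 0.082 (SE), adjusted p = 5.91e-12). Between days 20 and 35, 6 genes of this list, or 26.1%, were called higher, against 8.5% of all genes and 7 of the 8 round spermatid genes, whose part was again not tested.

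Of 20 genes of the gamma tubulin ring complex and its recruiting factors, 4 were called higher and 3 lower between days 14 and 20, or 20% and 15%, near the 18.2% and 11.2% of all genes. Between days 20 and 35, 6 of them, or 30%, were called lower, against 7.27% of all genes. Mzt2, a small subunit of the complex, rose from 252 to 1660.0 between days 14 and 20 (2.68 ± 0.12 (SE), adjusted p = 1.23e-12). Tubgcp3, a core subunit, fell from 192 to 43.8 in the same step (-1.95 ± 0.19 (SE), adjusted p = 6.23e-08).

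Among 16 tested kinesin light chains, adaptors and partners, 1 was called higher and 3 lower between days 14 and 20, or 6.25% and 18.8%, against 18.2% and 11.2% of all genes. Between days 20 and 35, 2 were called higher, or 12.5% against 8.5%. Klc3, the light chain known from the sperm tail, fell from 37.9 to 5.67 between days 14 and 20 (-1.78 ± 0.31 (SE), adjusted p = 6.13e-05) and was called higher again between days 20 and 35. Spatc1, a spermatid centrosome protein, rose from 6.55 to 420.4 between days 20 and 35 (4.90 ± 0.32 (SE), adjusted p = 3.05e-10).

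Of 23 tested subunits and regulators of cytoplasmic dynein, the motor that moves opposite to most kinesins, 4 were called higher between days 14 and 20, or 17.4%, near the 18.2% of all genes. Dynlrb2, a light chain, rose from 6.70 to 202 between days 8 and 14 (3.85 ± 0.21 (SE), adjusted p = 2.7e-11). Dynlt3, another light chain, fell from 402 to 137 between days 20 and 35 (-1.50 ± 0.097 (SE), adjusted p = 2.76e-10).

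Among 21 tested chaperones that fold tubulin, 1 was called higher between days 8 and 14 and 1 between days 14 and 20. Each is 4.76%, against 5.48% and 18.2% of all genes. Over the time course 47.6% of them were called, against 77.6%. Cct6b, a testis form of a chaperonin subunit, had the largest called rise, from 82.6 to 1223 between days 14 and 20 (3.78 ± 0.22 (SE), adjusted p = 3.77e-11). Of 29 microtubule-associated proteins, Clip4 had the largest rise, from 95.0 to 594 between days 20 and 35 (a difference of 2.55), and Ckap5, a microtubule polymerase, the largest fall, from 832 to 329 between days 14 and 20 (-1.32). Of 10 severing and destabilizing proteins, Katnal2, a katanin-like protein of spermatids, rose from 88.6 to 398 between days 14 and 20 (2.08), and Katnbl1, a katanin regulator, fell from 79.1 to 26.4 between days 20 and 35 (-1.45).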

How the data were processed

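The members and the gene lists were chosen with earlier results of these data known. The deposited values are intensities on a linear scale, 1 for a probe set on an array. Trizol RNA was amplified from its 3' end in 1 cycle and labelled with biotin, per the labels; how probes were summarized is not given in the sources used. The authors' arrays share a 2% trimmed mean of 125, and no further normalization was applied. Of 45101 probe sets, 64 controls were left out, 34945 carry 1 gene symbol in the platform annotation, 932 carry several and 9160 carry none. All 58 members were matched to RefSeq (GRCm38.p6) by Entrez identifier. Of the members, 16 stand on a probe set of a type that may also match other transcripts.

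A constant, the pooled 20th percentile of 7.83, was added before log2. A gene was tested if it passed the 40th percentile on 2 or more arrays, which left 16429. limma 3.58.1 in R 4.3.3 fitted day as a factor of 10 levels to all 20 arrays (lmFit and eBayes with a trend, 10 residual and 8.88 prior degrees of freedom), with two-sided tests and Benjamini-Hochberg adjustment over all genes tested. The fit was tested on simulated data for day 14 against day 8: it called 34% of genes changed by 1 on the log2 scale, 74% at 1.5, 86% at 2 and 94% at 3, and 5 of 16229 unchanged genes. Only 50 genes were changed at each size, on otherwise flat courses, whereas 77.6% of the real genes were called over the time course. These rates may therefore differ from those of the real arrays. At a true size of 1, the size required by itself keeps many genes from a call.

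Arrays are given for the 4 largest called rises and falls of a step and for a set list of members, and the largest called rise and fall of each list of related genes are named. Alternatives were other scalings, added constants, filters, probe set rules, thresholds, a fit without trend, array weights, a replicate block, only the compared days, and leaving out each array. Only 2 arrays a day limit the precision.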

Additional observations from a re-analysis of the deposited data

How the results depend on the processing

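The 27 calls of members were recomputed under 34 alternatives each: of 918 values, 880 kept the call, 38 lost it and 0 changed direction. Many of these values could hardly lose a call. Leaving out an array of a day that is not compared does not move the difference, and dropping the minimum size only adds calls. Of the 27 calls, the mean of all probe sets lost 8, the larger added constant 6 and the floor at the pooled median 4. Members called over the time course numbered 44, and 43 to 48 when each array was left out in turn. For day 8 against day 0, the 3 higher calls became 7 with a common median, 5 and 1 with a smaller and a larger added constant, 1 with the mean of all probe sets and 3 to 5 without each array (5 without day 0 replicate 2), and the 2 lower calls became 1 with the mean of all probe sets and remained 2 without each array. For day 14 against day 8, the 1 higher call became 2 with array weights, 4 with only the compared days and 1 to 2 without each array (2 without day 8 replicate 1 or either day 30 array), and the 2 lower calls became 1 with only the compared days, 0 at an adjusted p under 0.01 and 0 to 3 without each array (0 without day 8 replicate 2 or day 14 replicate 1). For day 20 against day 14, the 6 higher calls were 6 to 7 without each array, and the 5 lower calls became 9 with a common median, 3 with a larger added constant, 3 with the mean of all probe sets and 3 to 6 without each array (3 without day 14 replicate 2). For day 35 against day 20, the 6 higher calls were 6 to 9 without each array, and the 2 lower calls became 4 with quantile normalization, 1 with a common median, 5 and 1 with a smaller and a larger added constant, 1 with values floored at the pooled median and 2 to 4 without each array (4 without day 35 replicate 1). With no minimum size the calls were 10 higher and 6 lower, 5 and 9, 11 and 16, and 11 and 13 in the 4 steps, since smaller differences then count. The cause of the other changes was not tested.

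With a common median, the share of higher calls among all genes called went from 61.8% to 45.9% between days 14 and 20 and from 54.3% to 65.1% between days 0 and 8, and the median log2 difference of all genes between days 14 and 20 was -0.18. Replicate numbers did not pair the arrays: of 45 pairs of days, 0 had same-numbered deviations correlated over 0.1, the highest being 0.056. With the replicate block, the 3 higher calls between days 0 and 8 became 4, by Kif17, and the 44 members called over the time course and the other 7 counts were as without it. Dim probe sets such as those of Tubg2, Tuba3b and Tubb1 limit what 2 arrays a day can show.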
